A study of Rattus norvegicus with 4 samples.

Results

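Nitric oxide and arginine metabolism was followed through 10 genes measured in rat spleen cells after an injection of liposomes or of saline: Nos2, Arg1, Arg2, Ass1, Asl, Gch1, Ddah1, Ddah2, Odc1 and Azin1. The genes were chosen by name with earlier results of these data known, and every array probe that carries one of these names was taken. They have 11 probes, 2 of them for Ddah1. All 10 passed the filter on dim probes, Arg1 through the liposome arrays alone, and stand among 12858 genes tested of 22136 named on the array.

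Macrophages and other myeloid cells use arginine in competing ways. Inducible nitric oxide synthase (Nos2) turns arginine into nitric oxide and citrulline and needs tetrahydrobiopterin as a cofactor, while arginase turns arginine into urea and ornithine, from which polyamines and proline are made. Citrulline can be returned to arginine by Ass1 and Asl, and methylated arginines, which inhibit nitric oxide synthases, are broken down by Ddah1 and Ddah2.

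Both groups were male WKAH rats, 8 to 12 weeks old, whose spleens were taken 24 h after the injection. The saline group received saline alone and the liposome group received liposomes, small lipid vesicles and each group has 2 arrays. What the liposomes were made of, and their dose, is not given in the sources used here. Cells bearing MHC class II were first depleted with OX-6 beads. Cells bearing CD11b/c, an integrin pair of myeloid cells, were then enriched with the antibody OX-42, so both groups share this selection and hold a mixed fraction and not a pure cell type.

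The 4 arrays are one-colour Agilent arrays of 60-base probes. They share 1 slide and 1 scan. Of the 42877 spots that are no controls, between 61.3% and 66.3% per array had a signal well above background, and 0 were saturated. Over genes the pair of saline arrays correlated at 0.989, the pair of liposome arrays at 0.993, and arrays of different groups at 0.971 to 0.975. Below, a gene is called higher or lower when its adjusted p in limma is under 0.05, as 4.83% and 4.06% of all genes were. Of 8 macrophage markers 7 passed the filter and Marco did not. Their summed level, in units of the array's 75th percentile, was 73.1 and 64.6 in saline and 74.2 and 68.9 in liposome. The genes in this sum changed in opposite directions. Cd68, which weighs most in it, was 1.69-fold higher without passing (limma adjusted p = 0.0540). The log2 fold change was above 0 for 2 of the 7 and below 0 for 5, with a median of -0.43. Of the 7, 3 (Cd163, Vcam1 and C1qa) were called lower. Markers of other cell types were present too. The summed level of 7 neutrophil markers was 231 and 258 on the saline arrays and 138 and 149 on the liposome arrays, with 5 of the 7 lower. That of 6 erythroid markers was 79.0 and 81.4 against 29.7 and 28.5, with 4 of the 6 lower. The 8 B cell markers summed to 57.4 and 54.1 against 39.9 and 30.7, with 0 of the 8 called. The 5 genes of the depleted MHC class II cells summed to 413 and 379 against 293 and 292, with 1 of the 5 lower. The 8 natural killer cell markers (27.6 and 86.9 against 11.1 and 34.0) and 7 T cell markers (16.9 and 41.7 against 19.1 and 35.4) varied within the groups. None of them passed the test. All 8 natural killer cell markers had a log2 fold change below 0, with a median of -1.35. Their sum was lower in liposome between the arrays numbered 1 and between those numbered 2. Of the T cell markers 3 were above 0 and 4 below, with a median of -0.004. None of the markers tested is listed at 0. Mpo, Ltf, Epb42, Gata1, Cd28 and RT1-Ba were not well above background on both arrays of either group. In such a fraction fewer cells of a type and less RNA per cell cannot be told apart, and the part of these markers in the results below was not tested.

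Sequences of 4 probes are shown because they lie in the genes whose values are set side by side below: the dimmer Ddah1 probe, whose direction differed from that of the brighter probe, the Gch1 probe, and the probes of Asl and Azin1, the genes with the smallest differences. Each is written 5′ to 3′ in the sense of the mRNA, and the capitals mark the whole codons of its only reading frame without a stop.

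Ddah1, dimmer probe: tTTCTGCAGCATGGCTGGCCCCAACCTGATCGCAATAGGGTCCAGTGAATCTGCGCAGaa

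Gch1: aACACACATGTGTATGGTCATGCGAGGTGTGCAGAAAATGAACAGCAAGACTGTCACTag

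Asl: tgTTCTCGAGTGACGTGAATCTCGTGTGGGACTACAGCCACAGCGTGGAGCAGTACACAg

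Azin1: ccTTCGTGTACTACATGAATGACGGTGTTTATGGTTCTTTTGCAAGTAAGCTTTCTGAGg

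On the rat assembly rn4 (RGSCv3.4), as the array files give positions, this Ddah1 probe lies at chr2:244032795-244032854 on the plus strand and the brighter one at chr2:244070005-244070064, so their starts are 37210 bases apart. The Gch1 probe spans 1510 bases of the minus strand at chr15:23024229-23025738, more than its own 60 bases, as does the Ass1 probe, with a span of 1353 bases at chr3:10620727-10622079. The Asl probe lies at chr12:27720030-27720089 (plus) and the Azin1 probe at chr7:74163105-74163164 (minus). The other probes lie at chr10:65072394-65072453 (Nos2, plus), chr1:21011150-21011209 (Arg1, plus), chr6:101927878-101927937 (Arg2, plus), chr20:3829792-3829851 (Ddah2, minus) and chr6:41315531-41315590 (Odc1, plus). No annotation of this assembly was used, so exons and untranslated regions are not given.

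Of the 10 genes, Ddah1 fell 2.22-fold in the liposome group on its brighter probe, none rose, and 9 did not pass the test. The adjusted p is a Benjamini-Hochberg value over all genes tested, from limma with n = 2 arrays per group. Of all genes 8.89% were called in either direction, so that 1 call among 10 genes is near the background. The log2 fold change, liposome minus saline, was above 0 for 4 of the 10 genes and below 0 for 6, with a median of -0.05 beside -0.04 over all genes. The groups did not overlap for 5 of the 10 genes (Nos2, Arg1, Gch1, Ddah1 and Ddah2), against 65.5% of all genes. Whether the 2 arrays of a group stand for separate rats is not stated in the labels. The p-values therefore measure the spread between these samples alone, and that spread may be technical. The levels that follow are log2 intensities relative to the array's 75th percentile, and they compare arrays for 1 probe, not probes with each other.

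**Figure D1:**
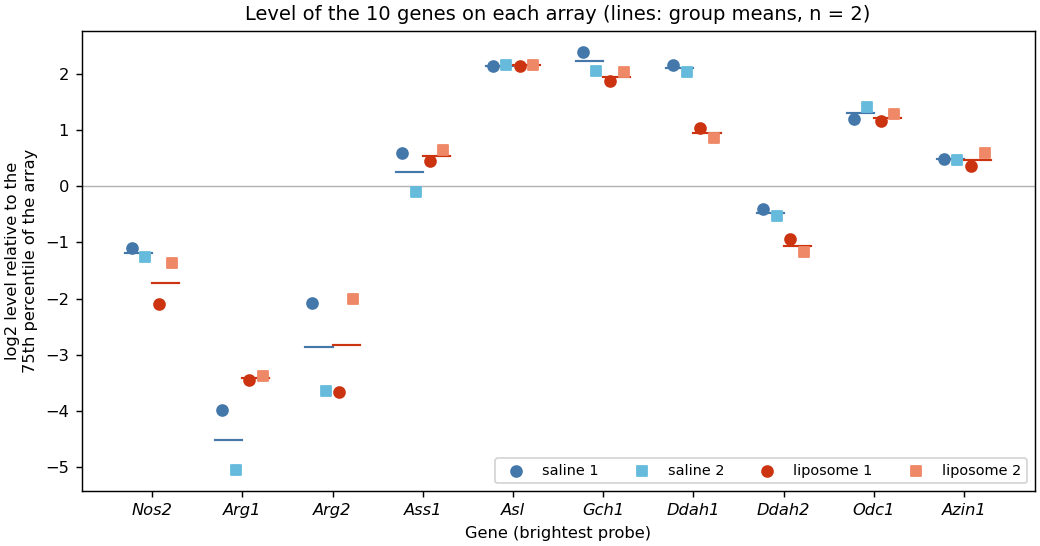
Level of each of the 10 genes on each array (y axis: log2 intensity of the brightest probe relative to the array's 75th percentile). Circles are the arrays numbered 1, squares those numbered 2, saline in blue and liposome in red, and short lines are group means of 2 arrays. Ddah1 and Ddah2 sit lower on both liposome arrays, Arg1 sits higher on both, and for Arg2 saline 1 and liposome 2 lie together above saline 2 and liposome 1.

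Nos2, the inducible synthase that makes large amounts of nitric oxide in activated macrophages, did not pass the test. Its level was -1.10 and -1.27 on the saline arrays and -2.09 and -1.37 on the liposome arrays. Both liposome arrays were below both saline arrays, but liposome 2 lay 0.10 below saline 2 and most of the difference came from liposome 1. This gave a log2 fold change of -0.55 ± 0.27 (SE, n = 2 arrays per group) with a 95% interval of -1.28 to 0.19 and a limma adjusted p of 0.243. Without liposome 1 it was -0.18 (adjusted p = 0.658) and without liposome 2 it was -0.91 (adjusted p = 0.166).

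Arg1, the cytosolic arginase of liver and of alternatively activated macrophages, had a higher mean in the liposome group without passing the test. Its probe is printed 10 times on each array, and its mean processed intensity was 60.7 and 30.0 on the saline arrays and 100 and 101.1 on the liposome arrays. The 10 spots ran from 53.8 to 76.4 (median 59.4) on saline 1, from 18.3 to 45.5 (median 30.0) on saline 2, from 90.1 to 108 (median 101) on liposome 1 and from 83.1 to 123 (median 100.3) on liposome 2. In these unscaled intensities the liposome spots lay above the saline spots, but once scaled to the array's 75th percentile the highest spot of saline 1 and the lowest of liposome 2 overlapped (-3.65 and -3.66 on the log2 scale). The saline arrays differed from each other as well. On saline 1 there were 9 of the 10 spots well above background, on saline 2 only 2, and on each liposome array all 10, so the probe as a whole was above background on 1 of 2 saline arrays and on both liposome arrays. Spots of 1 array share its RNA and are no replicates of the group.

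On the scaled log2 scale Arg1 stood at -3.99 and -5.05 in saline and at -3.45 and -3.38 in liposome, with no overlap. Its log2 fold change was 1.10 ± 0.38 (95% interval 0.09 to 2.12), which is 2.15-fold, with an unadjusted p of 0.0393 and a limma adjusted p of 0.134. Saline 2 set much of its size. Without that array it was 0.57, and without saline 1, which leaves saline 2 as the only saline array, it was 1.63. With another background correction, normexp, which adds an offset and draws dim values together, it was 0.43 (adjusted p = 0.154). Arg1 passed the filter on dim probes through the liposome arrays alone. With probes required above background on all arrays Arg1 was not tested.

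Arg2, the mitochondrial arginase, gave no difference that these arrays could resolve. Its level was -2.08 and -3.65 in saline and -3.66 and -2.0 in liposome. Saline 1 and liposome 2 were high and saline 2 and liposome 1 low, so that the groups overlapped fully. The mean log2 difference was 0.03 ± 0.79, and the 95% interval, -2.10 to 2.17, spans changes in either direction that are larger than any seen in the other 9 genes. Between arrays of the same title number it was -1.58 for number 1 and 1.65 for number 2.

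Ass1 and Asl, the enzymes that rebuild arginine from citrulline, did not pass the test. Ass1, argininosuccinate synthase, had levels of 0.60 and -0.10 in saline and 0.44 and 0.64 in liposome. Saline 2 was the low array and the groups overlapped, with a log2 fold change of 0.30 ± 0.27 (95% interval -0.42 to 1.02, adjusted p = 0.479). Without saline 1 it was 0.65 and without saline 2 it was -0.05, so its direction rested on saline 2. Asl, argininosuccinate lyase, whose sequence is shown above, had levels of 2.13 and 2.15 in saline and 2.14 and 2.16 in liposome. The 4 arrays lay within a few hundredths of each other, and the log2 fold change was 0.01 ± 0.09, with a 95% interval of -0.24 to 0.26 (adjusted p = 0.965).

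Gch1, GTP cyclohydrolase, the first enzyme in making tetrahydrobiopterin, had levels of 2.39 and 2.06 in saline and 1.88 and 2.03 in liposome. The groups did not overlap, though saline 2 and liposome 2 lay side by side. Gch1 had a log2 fold change of -0.27 ± 0.16 (95% interval -0.69 to 0.15, adjusted p = 0.299). It was -0.10 without saline 1 and -0.43 without saline 2.

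Ddah1, dimethylarginine dimethylaminohydrolase, was the gene that fell. On its brighter probe the processed intensity was 4325 and 4070 on the saline arrays and 2236 and 1919 on the liposome arrays. The scaled levels were 2.17 and 2.03 against 1.03 and 0.87, with each group's arrays close together and the groups far apart. The log2 fold change was -1.15 ± 0.12 (95% interval -1.47 to -0.83), a 2.22-fold lower level, with a limma adjusted p of 0.0210. The difference was -1.13 between the arrays numbered 1 and -1.17 between those numbered 2. By size of change Ddah1 ranked 618 among the 12858 genes. The call was lost on leaving out any 1 of the 4 arrays, with a log2 fold change between -1.23 and -1.07 and an adjusted p between 0.053 and 0.137.

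The dimmer Ddah1 probe, the one whose sequence is printed above, was not lower on the liposome arrays. Its processed intensity was 121 and 126 on the saline arrays and 166 and 165 on the liposome arrays. The scaled levels were -2.99 and -2.98 against -2.72 and -2.67, so both liposome arrays were above both saline arrays. When each probe was fitted by itself, the log2 fold change was 0.29 ± 0.10 and did not pass (adjusted p = 0.135 over 16852 probes, of which 6.74% were called), while the brighter probe kept its call in that fit (adjusted p = 0.0236). With normexp, which draws dim values together, the dimmer probe changed by 0.18 and did not pass (adjusted p = 0.271). With the mean of both probes as the value of the gene, Ddah1 changed by -0.43 and was not called (adjusted p = 0.070).

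The distance between the Ddah1 probes was tested as a value of its own, a test added after the values had been seen. Brighter minus dimmer was 5.16 and 5.01 log2 units on the saline arrays and 3.75 and 3.54 on the liposome arrays, a difference of -1.44 ± 0.12 (95% interval -1.78 to -1.10). The same fit over all 1834 genes with several passing probes gave an unadjusted p of 0.000342 and an adjusted p of 0.0697, and 0.382% of these genes were called. By the size of that difference Ddah1 ranked 18 of 1834. Over 11 alternatives the difference ran from -1.55 to -1.26 and its adjusted p from 0.0241 to 0.415, and it passed in 1 of them, normexp.

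**Figure D2:**
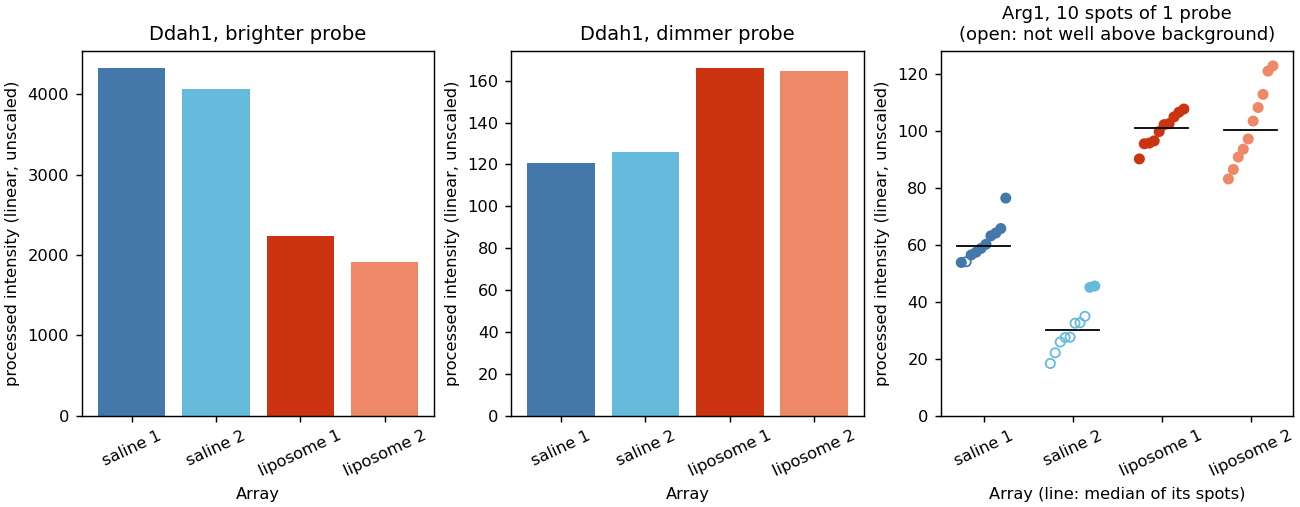
Processed intensity, linear and unscaled, on each of the 4 arrays for the brighter Ddah1 probe (left, bars), the dimmer Ddah1 probe (middle, bars) and the 10 spots of the Arg1 probe (right, points, with a line at the median and open points for spots not well above background). The brighter Ddah1 probe goes from 4325 and 4070 in saline to 2236 and 1919 in liposome, the dimmer one from 121 and 126 to 166 and 165, and the Arg1 spots of the liposome arrays (83.1 to 123) lie above those of the saline arrays (18.3 to 76.4) in these unscaled values.

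Ddah2, the second enzyme that breaks down methylated arginine, had a lower mean in the liposome group and did not pass the test. Its level was -0.41 and -0.53 in saline and -0.94 and -1.18 in liposome, with no overlap. Ddah2 had a log2 fold change of -0.59 ± 0.13 (95% interval -0.94 to -0.23, adjusted p = 0.0661). It passed with normexp background correction (-0.54, adjusted p = 0.0433), while leaving out 1 array gave adjusted p-values of 0.0993 to 0.292.

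Odc1 and Azin1, which stand at the entry to polyamine synthesis, did not pass the test. Odc1, ornithine decarboxylase, had levels of 1.21 and 1.41 in saline and 1.17 and 1.28 in liposome, which overlap. Its log2 fold change was -0.08 ± 0.12 (95% interval -0.41 to 0.24, adjusted p = 0.662). Azin1, which frees ornithine decarboxylase from antizyme, had levels of 0.49 and 0.47 in saline and 0.35 and 0.59 in liposome. The liposome arrays lay on either side of the saline arrays, and the log2 fold change was -0.01 ± 0.12 (95% interval -0.34 to 0.32, adjusted p = 0.964).

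The surrounding pathway was described with 70 other genes, of which 69 were on the array under these symbols and 50 passed the filter. Of these 50, 4 were higher and 0 lower in the liposome group, beside 4.83% and 4.06% of all genes, and 46 did not pass. The log2 fold change was above 0 for 36 and below 0 for 14, with a median of 0.20 beside -0.04 over all genes, and the groups did not overlap for 36 of the 50, beside 65.5% of all genes. The 4 calls were Slc7a6, Prmt7, Dohh and Sat2, the last of which passed the filter through the liposome arrays alone. Slc7a6, Prmt7 and Dohh lost the call when any 1 of the 4 arrays was left out, with adjusted p-values of 0.0519 to 0.246. Sat2 lost it without liposome 1 (adjusted p = 0.191) or liposome 2 (adjusted p = 0.171) and kept it without saline 1 (adjusted p = 0.030) or saline 2 (adjusted p = 0.0442).

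Among carriers of arginine, 1 of 7 tested was higher and none lower, beside 4.83% and 4.06% of all genes, with a median log2 fold change of 0.48. The one that rose was Slc7a6, part of an exchanger of basic and neutral amino acids, at -0.14 and -0.04 in saline and 0.63 and 0.52 in liposome. Both liposome arrays were above both saline arrays, a 1.58-fold difference (0.66 ± 0.10, adjusted p = 0.0412).

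Of the partners of nitric oxide synthases, none of the 5 tested passed, and the median was 0.23. The synthases Nos1 and Nos3 failed the filter, as did Nos1ap and Cav1, which leaves Nos2 as the only synthase tested. The largest difference was that of Nostrin, a protein that binds the endothelial synthase, whose level was -2.08 and -2.89 in saline and -1.25 and -1.33 in liposome. It did not overlap and did not pass (1.19 ± 0.29, adjusted p = 0.0781), and its size varied with the saline arrays. It was 1.60 without saline 1 (adjusted p = 0.0362) and 0.79 without saline 2 (adjusted p = 0.0601). With normexp it was 0.88 (adjusted p = 0.0429), and over all 14 alternatives its adjusted p ran from 0.0362 to 0.322, under the threshold in 3.

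Beside Gch1, none of 6 genes of tetrahydrobiopterin synthesis and recycling passed, with a median of 0.09. Gchfr, the feedback regulator that binds GTP cyclohydrolase, had the largest difference. Its level was 3.26 and 2.84 in saline and 2.43 and 2.18 in liposome, lower on both liposome arrays, with a log2 fold change of -0.75 ± 0.19 that did not pass (adjusted p = 0.0831).

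Of the genes that methylate arginine, 7 were tested, 1 was higher and none lower, beside 4.83% and 4.06% of all genes, with a median of 0.39. Prmt7, an arginine methyltransferase, rose 1.84-fold, from -1.27 and -1.36 in saline to -0.38 and -0.51 in liposome (0.88 ± 0.11, adjusted p = 0.0270). Its groups were far apart on all 4 arrays.

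In the urea cycle and in ornithine and proline metabolism, none of the 6 tested genes passed (median 0.14), and the urea cycle genes Cps1, Nags and Otc failed the filter. Oat, which turns ornithine towards proline, had the largest difference, with levels of 2.93 and 2.50 in saline and 3.12 and 3.03 in liposome (0.36 ± 0.18, adjusted p = 0.241). It was 0.58 without saline 1 and 0.14 without saline 2. None of 3 genes of creatine and agmatine metabolism passed (median -0.11). The largest difference there was that of Gatm, which makes the creatine precursor from arginine, at 0.16 and -0.33 in saline and -0.67 and -0.58 in liposome (-0.54 ± 0.20, adjusted p = 0.148). It was -0.29 without saline 1 and -0.79 without saline 2.

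Among polyamine genes 2 of 13 were higher and none lower, beside 4.83% and 4.06% of all genes, with a median of 0.18. Dohh, which completes hypusine, a residue made from the polyamine spermidine on a translation factor, rose 2.08-fold, from 2.88 and 3.11 to 4.12 and 3.99 (1.06 ± 0.13, adjusted p = 0.0267). Sat2, named as a relative of the polyamine acetyltransferase Sat1, stood at -5.41 and -6.66 in saline, where its probe was not well above background on either array, and at -3.25 and -3.52 in liposome. A bound taken from the lowest signals well above background put it at least 2.74-fold higher in the liposome group. The limma adjusted p of 0.0448 belongs to the unbounded log2 fold change of 2.65, which rests on those dim saline values. Sat2 passed the filter through the liposome arrays alone. With probes required above background on all arrays Sat2 was not tested, and 4 of 49 pathway genes were called. These were Slc7a6, Prmt7, Dohh and another gene that the main setting did not call. None of 3 genes of nitric oxide signalling passed (median 0.25). Of these Gucy1a1, a subunit of the guanylate cyclase that nitric oxide activates, had the largest difference, at -4.11 and -4.32 in saline and -3.83 and -3.64 in liposome (0.48 ± 0.13, adjusted p = 0.0975). With normexp its difference was 0.10 (adjusted p = 0.567).

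**Figure D3:**
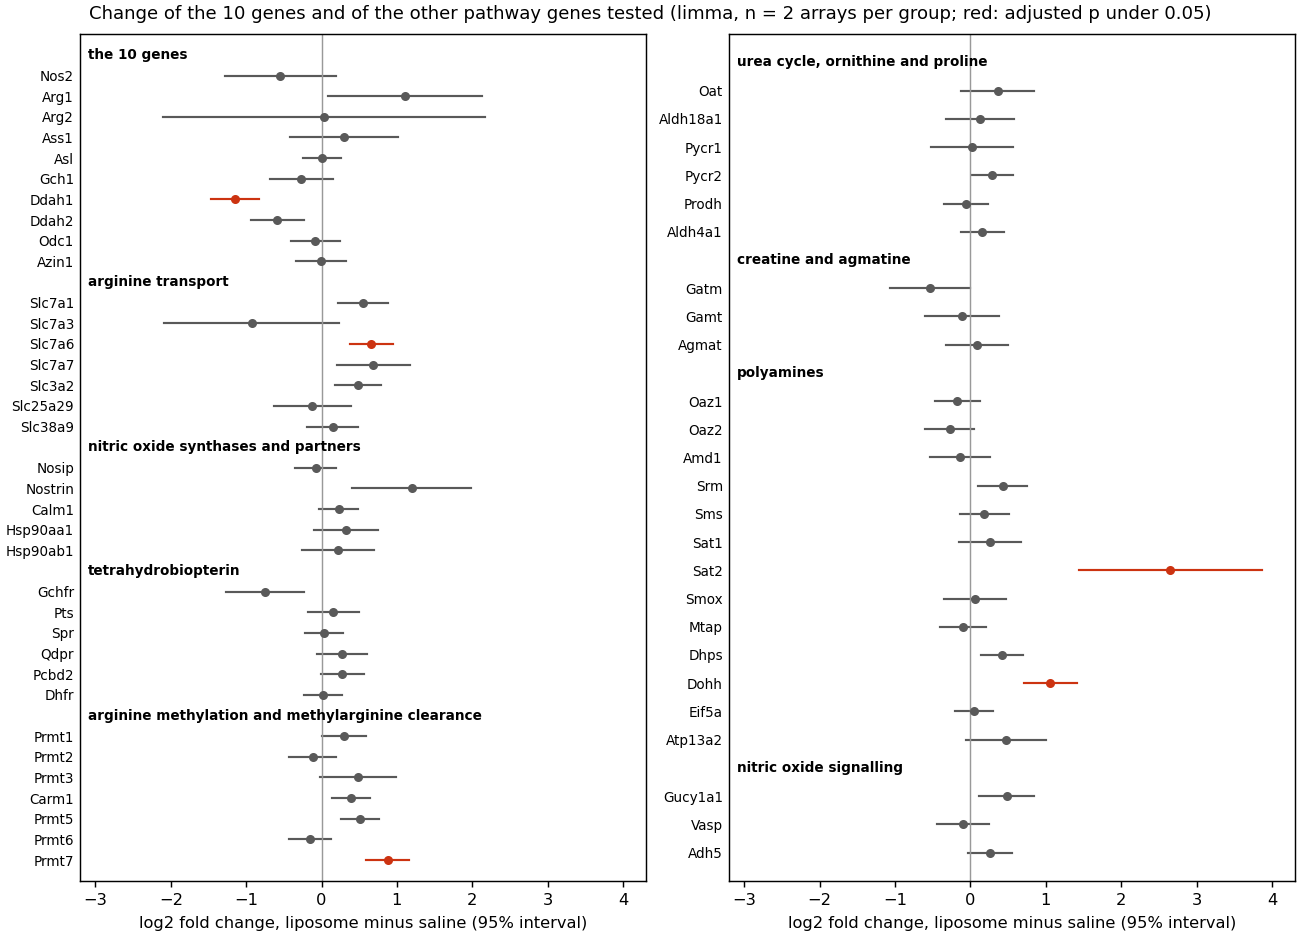
Log2 fold change, liposome minus saline, of the 10 genes and of the 50 other pathway genes tested (points), with 95% intervals from limma (lines), grouped by role. Red marks an adjusted p under 0.05: Ddah1 lies below 0, and Slc7a6, Prmt7, Sat2 and Dohh lie above 0. The interval of Arg2 is the widest of the 10 genes.

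Regulators known to induce Nos2 or Arg1 were read from the same fit. Of 13 regulators of Nos2, 1 was lower and none higher, with 10 log2 fold changes below 0 and a median of -0.28, where 4.06% of all genes were lower and their median was -0.04. Irf1, an interferon-induced transcription factor needed for Nos2 induction in macrophages, fell 1.88-fold, from 6.47 and 6.35 in saline to 5.40 and 5.60 in liposome (-0.91 ± 0.12, adjusted p = 0.0308). Of 9 regulators of Arg1, 1 was higher and none lower, with 7 log2 fold changes below 0 and a median of -0.25, where 4.83% of all genes were higher. Pparg, a nuclear receptor that promotes alternative activation of macrophages, rose 1.44-fold, from 1.23 and 1.18 to 1.73 and 1.72 (0.52 ± 0.09, adjusted p = 0.0494), and did not pass in 10 of 14 alternative settings. Both Irf1 and Pparg lost the call when any 1 array was left out.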

How the data were processed

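Spot intensities of 4 one-colour arrays were deposited by the authors as scanner output. The software was Agilent Feature Extraction 10.7.3.1, as the submitters' processing notes give it. Processed intensities were background-subtracted array by array and not scaled between arrays, per the file headers. The deposited flag columns (other values) mark spots well above background, saturated spots and outliers.

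Control spots and outlier spots (1.14% to 1.36%) were removed. Repeated spots were averaged as log2 values and set relative to the 75th percentile of their array. A probe was kept if a group had it well above background on both its arrays (16852 of 30367), and 278 probes lacking a value on some array were dropped. Symbols came from the RefSeq gene list of assembly GRCr8 for 18006 probes and from the files, which can be old, for 8186. The other 4175 had no gene name. The brightest probe stood for a gene. limma 3.58.1 in R 4.3.3 (lmFit, eBayes, prior of 2.26 beside 2 residual degrees of freedom) was used with the data.table package (1.17.8). The fit was also run on simulated data with independent noise and added changes larger than that of Ddah1. That run does not bear on calls of smaller changes. Adjusted p-values are Benjamini-Hochberg values. With 2 arrays per group the smallest p of an exact permutation test is 0.333, so none was run. The number of arrays limits the precision. In the bound for Sat2, each saline array counts with the higher of its lowest signal among probes well above background and the probe's own signal.

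The 10 genes and all lists were chosen with earlier results of these data known. Named were all 10 genes, of each other pathway list the up to 4 called genes with the largest change or else the gene with the largest change, and the called regulators. The sample titles end in exp1 or exp2 in both groups, the title numbers 1 and 2 used here. The labels do not say what exp marks, so the main fit did not use the numbers as pairs. Comparisons between arrays of the same number and the replicate block do use them. Alternatives covered scaling, background correction, the filter, the probe rule, outlier spots, naming, a replicate block and leaving out each array.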

Additional observations from a re-analysis of the deposited data

How the results depend on the processing

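The main setting called 1143 genes, 1 of the 10 genes and 4 of the 50 pathway genes. Normexp called 1720, 2 and 7. The replicate block, which leaves fewer residual degrees of freedom than the main fit, called 1816, 2 and 8. Among the calls it added were Ddah2 (adjusted p = 0.0465), Nostrin (adjusted p = 0.0423) and Gchfr (adjusted p = 0.0336). Deviations from the group means correlated at 0.355 between arrays of the same number, over 2 pairs, whose meaning the labels do not give. Without a filter on dim probes limma called 0 genes of 21971, 0 of the 10 and 0 of the 69, with 3005, 2 and 12 at an unadjusted p under 0.05. The mean of a gene's probes called 0 of the 10, with 3 at an unadjusted p under 0.05. Leaving out each array in turn gave 0 to 499 gene calls, 0 to 1 of the 10 genes (Arg1, without saline 1) and 0 to 2 pathway calls. Without liposome 1 the smallest adjusted p was 0.0558 and 2177 genes had an unadjusted p under 0.05, and without liposome 2 these were 0.0657 and 2397. In these fits the lone array was assumed to vary like the other group. Array median scaling, which moved the median of all genes from -0.04 to 0.05, made 65.8% of calls higher, beside 54.3%. The block made 45.6% higher.

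Directions turned for 5 of the 10 genes, none of them called, and for no other named gene. Azin1 was 0.071 with array median scaling and 0.0181 with normexp, and leaving out each array gave -0.128 to 0.109. Asl was -0.0236 with quantile normalization, and leaving out each array gave -0.0048 to 0.0191. Arg2 was -0.0337 with normexp and ran from -0.796 to 0.866 with an array left out. With an array left out Ass1 ran from -0.0532 to 0.647 and Odc1 from -0.183 to 0.0164. Ddah1 stayed below 0 in all 14 alternatives (-1.23 to -0.43) and lost its call in 6, the 4 left-out arrays, the mean of its probes and no filter. Apart from the mean of its probes, these values are those of the brighter probe alone. The dimmer Ddah1 probe was above 0 in all 11 alternatives run for it (0.18 to 0.37) and was not called. Sat2 was 0.82 with normexp and was called there (adjusted p = 0.0293).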
